A study of Arabidopsis thaliana with 24 samples.

Results

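The comparison set *nrt1.13* plants against wild-type Col-0 plants of *Arabidopsis thaliana*, both grown in hydroponic medium with 0.2 mM KNO3 and harvested as shoots at 25 days. The 6 plants of the comparison were chosen by their labels, 3 for each genotype, out of 24 plants in the whole series. The *nrt1.13* line carries a homozygous T-DNA insertion from the SAIL collection in *NRT1.13*, and it is 1 insertion line compared with its background accession. Both genotypes received 0.2 mM KNO3 with KCl added as the replacement salt, under 12 h of light and 12 h of dark, and the labels date the plants both by germination and by sowing. Each library came from the polyadenylated RNA of 1 plant, so the 3 values of a genotype are 3 plants. The other 18 plants of the series were the same genotypes at 2 mM KNO3 or at 16 days, with 6 plants in each condition, and they enter below where a difference is set beside the one at 0.2 mM and 25 days.

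NRT1.13 belongs to the NRT1/PTR family of plant membrane transporters, whose members move nitrate, peptides, hormones or other small molecules, and some of which also sense nitrate. Low nitrate changes the time at which *Arabidopsis* flowers, and a central brake on flowering is FLC, a MADS-domain repressor that holds down the floral integrators *FT* and *SOC1* in leaves and at the shoot tip. Shoots of this age can hold rosette leaves, petioles and a shoot apex that is either vegetative or already making flowers. The comparison asks which transcripts differ between the genotypes when nitrate is limiting.

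Reads per library ranged from 23608279 to 45409665 in the *nrt1.13* plants and from 31216594 to 37227406 in the wild-type plants. Values are counts per 1e6 reads (CPM) as deposited, and a value of 2 CPM stood for 45.5 to 90.2 reads in these 6 libraries. The tested genes were the 15108 with at least 2 CPM in all 24 libraries of the series. The 9 root markers, *IRT1* and *FRO2* among them, summed to 1.32 to 1.65 CPM in *nrt1.13*, against 1.64 to 2.05 CPM in wild type, and *EXPA18* was at 0 in all 6 plants. The photosynthetic genes of the shoot were abundant, with *RBCS1A* at 16535 to 21306 CPM in *nrt1.13*, against 18713 to 19601 CPM in wild type.

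*NRT1.13* (AT1G33440) was lower in all 3 *nrt1.13* plants. It had 3.01, 4.002 and 3.26 CPM in *nrt1.13*, against 8.71, 8.34 and 7.16 CPM in wild type. The genotypes did not overlap, and the level in *nrt1.13* was above 2 CPM in each plant. Means were 3.43 ± 0.51 CPM in *nrt1.13*, against 8.07 ± 0.81 CPM in wild type (SD, n = 3 each), and the log2 fold-change (FC) was -1.22 (SE 0.19, 95% interval -1.62 to -0.82, adjusted *P* = 0.00198 by limma with Benjamini-Hochberg adjustment). FCs are on the log2(CPM + 0.1) scale, which understates the change of low genes. In TAIR10.1 the gene lies on chromosome 1, from 12127389 to 12130444 on the minus strand, and has 5 exons. The study reported no *NRT1.13* transcript in petioles of this line by RT-PCR, and it places the T-DNA in the fourth exon. That exon spans 119 bases at chr1:12128686-12128804 and is shown on the minus strand because it is the interrupted part of the transcript.
*NRT1.13* exon 4: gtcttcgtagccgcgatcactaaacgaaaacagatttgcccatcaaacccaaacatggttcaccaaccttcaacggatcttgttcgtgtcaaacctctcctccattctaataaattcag
The deposited value is a sum over all exons of the gene, so it does not separate reads before the insertion from reads after it. Of the 50-base stretches in its exons, 1.3% also occurred elsewhere in the genome.

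At 0.2 mM KNO3 and 25 days, 19 of the 15108 genes (0.126%) passed an FC of at least 1.8 with an unadjusted *P* of at most 0.05, the criterion of the study's methods. Of these, 14 were higher (0.0927%) and 5 were lower (0.0331%) in *nrt1.13*. With an adjusted *P* of at most 0.05 and no limit on the FC, 39 genes (0.258%) passed, 22 higher (0.146%) and 17 lower (0.113%). Together the criteria named 45 genes, 27 higher and 18 lower in *nrt1.13*, and 13 genes passed both. In 43 of the 45 genes the 3 *nrt1.13* plants did not overlap the 3 wild-type plants, against 7.54% of all tested genes (3.74% higher and 3.8% lower). The 45 genes were called on the difference between these same plants. Their separation therefore follows largely from that selection and is not separate support. With the 6 libraries of the comparison fitted alone, 9 of the 39 genes passed the adjusted *P*: *NRT1.13*, *FLC*, *CYSTM8*, *AGP17*, *EXO*, *UBC11*, *SHL1*, *TLP2* and AT1G72430. The median log2 FC over all tested genes was -0.00.

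**Figure D1:**
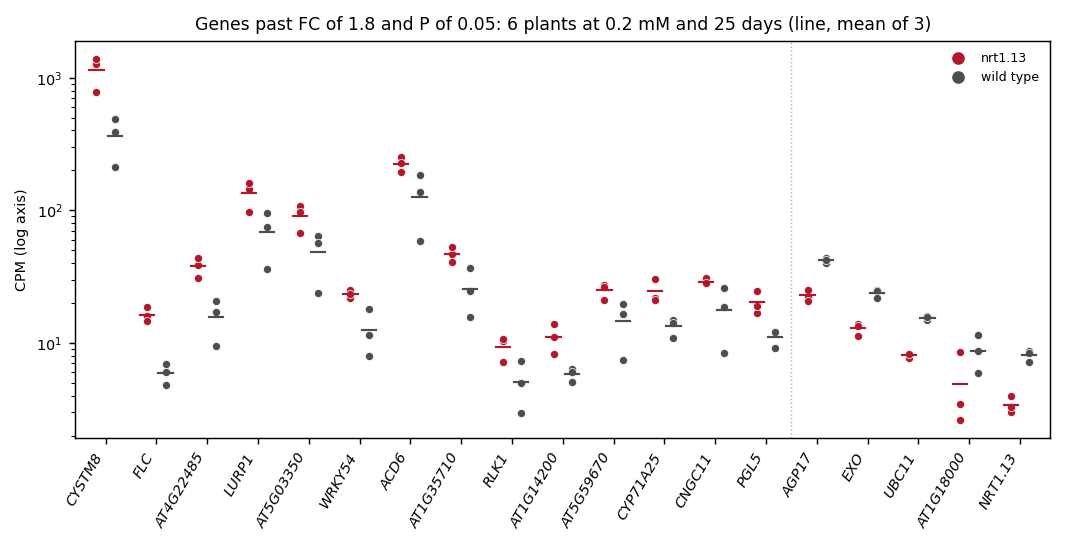
CPM on a log axis of the 19 genes past an FC of 1.8 and an unadjusted *P* of 0.05, in 3 *nrt1.13* plants (red, left of each pair) and 3 wild-type plants (grey, right) at 0.2 mM KNO3 and 25 days. Lines are means of 3 plants. The 14 genes left of the dotted line were higher and the 5 genes right of it lower in *nrt1.13*, and only *RLK1* and AT1G18000 overlapped between the genotypes.

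*FLC* (AT5G10140, chromosome 5) was 2.74-fold higher in *nrt1.13* on this scale. It had 15.9, 18.5 and 14.6 CPM in *nrt1.13*, against 5.998, 6.98 and 4.83 CPM in wild type. Every *nrt1.13* plant stood above every wild-type plant, and the log2 FC was 1.45 (SE 0.21, adjusted *P* = 0.000283). The difference had the same sign in the other conditions, with log2 FCs of 0.83 (2 mM, 25 days), 1.03 (0.2 mM, 16 days) and 0.48 (2 mM, 16 days). *FLC* averaged 16.3 ± 2.004 CPM in *nrt1.13* against 5.93 ± 1.08 CPM in wild type at 0.2 mM, and 14.5 ± 2.38 CPM against 8.15 ± 1.27 CPM at 2 mM (SD, n = 3 each, 25 days). The genotype difference at 0.2 mM exceeded that at 2 mM by 0.63 on the log2 scale (SE 0.29), which did not pass after adjustment (adjusted *P* = 1.00, unadjusted *P* = 0.0405). TAIR10.1 places a non-coding gene, AT5G01675, on the strand opposite *FLC*, over 804 of the bases in *FLC* exons. The strand setting of the counting was not given in the sources used here, so reads of both transcripts cannot be told apart.

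The other tested members of the *FLC* clade did not pass the test. The clade and *SVP*, MADS-domain genes that act beside *FLC*, had 6 of 7 members tested, a median log2 FC of 0.02, and *FLC* as the only member with an unadjusted *P* of at most 0.05 (3.56% of all tested genes were higher and 2.54% lower at that level). *SVP* had 67.9, 85.8 and 89.9 CPM in *nrt1.13*, against 75.7, 81.9 and 78.6 CPM in wild type, and the 2 sets of plants overlapped. *MAF5* was the next in order, with a log2 FC of 0.34 and an unadjusted *P* of 0.276. All 7 genes of the autonomous pathway, which keeps *FLC* low in Col-0, were tested, and 0 passed at an unadjusted *P* of 0.05. Their log2 FCs ran from -0.12 for *FVE* to 0.09 for *FLD*, with a median of -0.04.

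Of 10 floral integrators and meristem identity genes, *SOC1* and *AGL24* were tested, and neither they nor any *SPL* gene of the age pathway passed the adjusted *P*. *SOC1* (AGL20), the MADS-domain integrator, had 10.2, 9.76 and 12.6 CPM in *nrt1.13*, against 14.96, 13.6 and 12.2 CPM in wild type. One *nrt1.13* plant lay above the lowest wild-type plant, and the log2 FC of -0.33 (SE 0.10) had an adjusted *P* of 0.306. *AGL24*, a MADS-domain partner of *SOC1*, had 39.0, 40.6 and 48.2 CPM in *nrt1.13*, against 39.8, 39.9 and 41.1 CPM in wild type, with overlap (log2 FC 0.07, adjusted *P* = 0.994). *CO*, the photoperiod activator of *FT*, had 3.997, 3.52 and 3.99 CPM in *nrt1.13*, against 4.42, 4.56 and 4.75 CPM in wild type (log2 FC -0.25, adjusted *P* = 0.915). The *SPL* genes encode the transcription factors that rise as miR156 declines with age, and 8 of their 9 tested members had negative log2 FCs, with a median of -0.28. Of the 9, 4 were lower at an unadjusted *P* of 0.05 (2.54% of all tested genes) and 0 were higher (3.56%). None passed the adjusted *P*. This list, like the others, was chosen with earlier results of these data known. The count of 4 was 2 without *nrt1.13* replicate 2 or wild-type replicate 2, and 6 without *nrt1.13* replicate 3. In 5 of the 9 genes *nrt1.13* replicate 1 was the lowest plant (22.0% of all tested genes), and in 5 wild-type replicate 3 was the highest (15.3%). *SPL2* had 19.0, 19.7 and 21.0 CPM in *nrt1.13*, against 27.3, 23.6 and 25.4 CPM in wild type (log2 FC -0.35, adjusted *P* = 0.143). *SPL4* had 3.30, 3.34 and 4.72 CPM, against 5.64, 5.34 and 6.45 CPM (log2 FC -0.62, adjusted *P* = 0.256). Both were below all wild-type plants in all 3 *nrt1.13* plants, as were *SPL15* and AT1G69170, listed as *SPL6*. Of all tested genes, 3.8% were lower without overlap.

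Markers of the shoot apex also had lower values in *nrt1.13*. The shoot meristem genes *STM* and *KNAT1*, homeobox genes of the shoot apex, were the 2 of 4 meristem markers above the filter. *STM* had 6.19, 4.84 and 6.63 CPM in *nrt1.13*, against 7.80, 7.32 and 9.78 CPM in wild type. *KNAT1* had 3.96, 3.08 and 4.46 CPM, against 5.09, 5.40 and 5.74 CPM. Their log2 FCs were -0.49 (adjusted *P* = 0.469) and -0.50 (adjusted *P* = 0.333), with no overlap between the genotypes in either. Among all tested genes, 3.8% were lower without overlap and 2.54% were lower at an unadjusted *P* of 0.05, as these 2 were. The 4 meristem markers summed to 7.92 to 11.1 CPM in *nrt1.13*, against 12.7 to 15.7 CPM in wild type. *CLV3* and *WUS* were near 0 in both genotypes and overlapped (two-sided exact permutation test, *P* = 0.4 for each). Both had 0 reads in all *nrt1.13* plants, against 2, 0 and 3 reads of *CLV3* and 2, 0 and 2 reads of *WUS* in wild type. The part of these markers in the *SOC1* and *SPL* values was not tested. In whole shoots, fewer cells of a type and less RNA per cell cannot be told apart.

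Transcripts of flowers were scarce, and several had lower values in *nrt1.13*. *AP1*, the gene that marks a floral meristem, had 0 reads in all 3 *nrt1.13* plants, against 16, 7 and 42 reads in the wild-type plants. With 3 reads over the *nrt1.13* libraries as the limit that a count of 0 allows, *AP1* was at least 21.4-fold lower in *nrt1.13*. That bound covers counting error only and not the spread between plants, and without wild-type replicate 3, which held 42 of the 65 reads, it was 12.0-fold, a value computed after the data were seen. *LFY*, which acts with *AP1*, had 0.127, 0 and 0.133 CPM in *nrt1.13*, against 0.516, 0.310 and 0.866 CPM in wild type. The petal and stamen gene *PI* had 0.127, 0 and 0.155 CPM in *nrt1.13*, against 0.709, 4.99 and 1.99 CPM in wild type. *AP3* and *SEP1* were likewise below every wild-type plant in each *nrt1.13* plant, whereas the stamen and carpel gene *AG* was higher, with 0.507, 0.528 and 0.621 CPM against 0.484, 0.124 and 0.210 CPM. *SEP2* and *SEP3* overlapped between the genotypes. The 6 floral organ markers summed to 1.51 to 1.59 CPM in *nrt1.13*, against 2.90 to 7.07 CPM in wild type. *FT* itself, the mobile flowering signal, had 0.127, 0.0880 and 0.399 CPM, against 0.161, 0.310 and 0.787 CPM, and the genotypes overlapped (two-sided exact permutation test, *P* = 0.4). In these genes a value stands for 0 to 161 reads, and for 3 plants against 3 the exact permutation test cannot go below *P* = 0.1, the value of *AP1*, *LFY*, *PI*, *AP3*, *SEP1* and *AG*. Of 87 listed genes below the filter, 12 reached that value, 3 higher and 9 lower in *nrt1.13*, beside 7.54% of the tested genes without overlap. The other integrator and meristem identity genes below the filter, *FUL* (AGL8), *CAL*, *FD*, *TFL1* and *TSF*, overlapped between the genotypes. *FUL* had 3.36, 4.22 and 4.37 CPM in *nrt1.13*, against 6.16, 3.13 and 3.75 CPM in wild type (log2 difference -0.07).

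The largest increase was that of *CYSTM8* (AT3G22235), which encodes a small cysteine-rich membrane protein of a family linked to stress tolerance. It had 785, 1271 and 1389 CPM in *nrt1.13*, against 484, 392 and 211 CPM in wild type. All *nrt1.13* plants were above all wild-type plants, and the log2 FC was 1.704 (SE 0.21, adjusted *P* = 6.44e-05). It was also higher in the other conditions, by log2 FCs of 1.08 (2 mM, 25 days), 0.89 (0.2 mM, 16 days) and 0.82 (2 mM, 16 days). *CYSTM8* lies near *PCC1* (AT3G22231) on the minus strand of chromosome 3, and 85.7% of its exonic 50-base stretches occurred elsewhere in the genome. Their second coding exons, at chr3:7855334-7855472 for *CYSTM8* and chr3:7846268-7846421 for *PCC1* in TAIR10.1, are shown because they share a run of 135 bases, with the bases after that run in capitals.
*CYSTM8*: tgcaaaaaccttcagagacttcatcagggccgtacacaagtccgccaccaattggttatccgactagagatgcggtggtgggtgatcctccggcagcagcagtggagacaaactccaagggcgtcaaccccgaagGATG
*PCC1*: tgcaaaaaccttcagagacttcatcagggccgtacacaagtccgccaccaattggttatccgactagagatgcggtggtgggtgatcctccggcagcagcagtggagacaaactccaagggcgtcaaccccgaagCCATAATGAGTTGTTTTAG
The study kept only reads that mapped to 1 place, and how far reads from the shared run entered either value was not tested. *PCC1* had 491, 688 and 737 CPM in *nrt1.13*, against 558, 421 and 224 CPM in wild type, with overlap between the genotypes (log2 FC 0.75, adjusted *P* = 0.141). AT3G22240, the gene with most of the shared stretches, stayed at 0.372 to 0.924 CPM in the 6 plants.

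Some genes linked to salicylic acid and pathogen defence were higher in *nrt1.13*. The list of 26 such genes had 15 tested, of which 5 were higher at an unadjusted *P* of 0.05 (3.56% of all tested genes) and 0 lower. Of the 15, 3 were higher by the FC criterion (0.0927% of all) and 4 by the adjusted *P* (0.146% of all). The median log2 FC of the 15 was 0.14, and 14 of them were positive. The list was chosen with earlier results of these data known, so these counts describe its members and are not a test of the set. *LURP1*, a gene induced by pathogens and salicylic acid, had 97.9, 145 and 160 CPM in *nrt1.13*, against 96.0, 74.3 and 35.9 CPM in wild type (log2 FC 1.05, SE 0.22, adjusted *P* = 0.0322). *WRKY54*, which with *WRKY70* tunes salicylic acid responses, had 21.8, 25.1 and 23.3 CPM in *nrt1.13*, against 18.1, 11.4 and 8.03 CPM in wild type (log2 FC 0.98, SE 0.17, adjusted *P* = 0.0043). *ACD6*, an ankyrin protein that promotes defence, had 194, 252 and 229 CPM in *nrt1.13*, against 184, 138 and 58.8 CPM in wild type (log2 FC 0.97, SE 0.21, adjusted *P* = 0.0425). *WRKY70* had 31.4, 36.4 and 39.7 CPM, against 30.5, 22.3 and 14.3 CPM (log2 FC 0.74, adjusted *P* = 0.0184). In all 4 genes the genotypes did not overlap, although *nrt1.13* replicate 1 lay close to wild-type replicate 1. The 4 were singled out for passing the adjusted *P* in these plants, which favours such separation.

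Receptor and lectin genes outside the list were also among the higher genes. The receptor kinase genes AT1G35710 (log2 FC 0.94), *RLK1* (0.94) and AT5G59670 (0.88), the lectin gene AT5G03350 (1.01) and the channel gene *CNGC11* (0.86) passed the FC criterion, and the first 2 of them also passed the adjusted *P*, although *RLK1* overlapped between the genotypes. AT5G03350 had 67.2, 108 and 97.9 CPM in *nrt1.13*, against 63.9, 56.5 and 23.8 CPM in wild type. *CNGC11* had 28.3, 30.6 and 28.1 CPM, against 26.1, 18.6 and 8.42 CPM, and 41.9% of its 50-base stretches occurred elsewhere, mainly in its neighbour AT2G46450. The TIR-domain genes AT1G72910 and AT5G46260 were higher by log2 FCs of 0.62 and 0.69 and passed the adjusted *P*. Of their 50-base stretches, 22.8% and 22.3% occurred elsewhere. Both missed the adjusted *P* without wild-type replicate 3, without *nrt1.13* replicate 2 and with the libraries of the comparison alone. AT1G35710 and *RLK1* missed it there too, and also in edgeR and DESeq2. Without wild-type replicate 3, none of the receptor kinase, lectin and channel genes named here passed the FC criterion.

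Wild-type replicate 3 was the lowest of the 6 plants in 11 of the 15 tested defence genes (73.3%), against 14.5% of all tested genes. Selection of the 27 called higher genes favours a wild-type plant as the lowest. Among them replicate 3 was the lowest in 21, replicate 1 in 5 and replicate 2 in 1. Without wild-type replicate 3 the log2 FC of *ACD6* was 0.49, that of *LURP1* was 0.64 and that of *WRKY70* was 0.45. None of the 3 then passed the adjusted *P*. The 3 genes also missed the adjusted *P* without *nrt1.13* replicate 2 or without *nrt1.13* replicate 3, and *WRKY70* also without wild-type replicate 2 (0.0508). With 1 plant left out, *WRKY54* missed it only without *nrt1.13* replicate 2 (adjusted *P* = 0.0532). With the libraries of the comparison alone, all 4 genes missed it, at adjusted *P* values of 0.354 for *WRKY54* to 0.973 for *ACD6*. *LURP1*, *WRKY70* and *ACD6* also missed it in limma without a trend and with no filter on low values, *LURP1* and *ACD6* in edgeR (0.0568 and 0.105), and *ACD6* in DESeq2 (0.0608). Without wild-type replicate 3, on the list 5 genes were higher at an unadjusted *P* of 0.05, 0 passed the FC criterion and 1 passed the adjusted *P*. Over all genes, 11 then passed the FC criterion (6 higher and 5 lower) and 23 the adjusted *P* (6 higher and 17 lower). *FLC*, *CYSTM8*, *AGP17*, *EXO* and *NRT1.13* passed the adjusted *P* with each plant left out in turn. *PR1*, a late marker of salicylic acid responses, was below the filter, with 4.57, 4.53 and 7.92 CPM in *nrt1.13*, against 3.39, 5.24 and 2.28 CPM in wild type. Its log2 difference was 0.66, with overlap. Of the other defence-list genes below the filter, *WRKY38* (0.99), *NIMIN1* (0.71) and *NIMIN2* (0.71) had positive differences. Those of *CBP60G* (-0.29), *WRKY53* (-0.26), *PBS3* (-0.24), *NUDT6* (-0.22), *ALD1* (-0.20) and *WRKY46* (-0.12) were negative, and *FMO1* had 0 reads. Only *WRKY38* did not overlap between the genotypes.

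**Figure D2:**
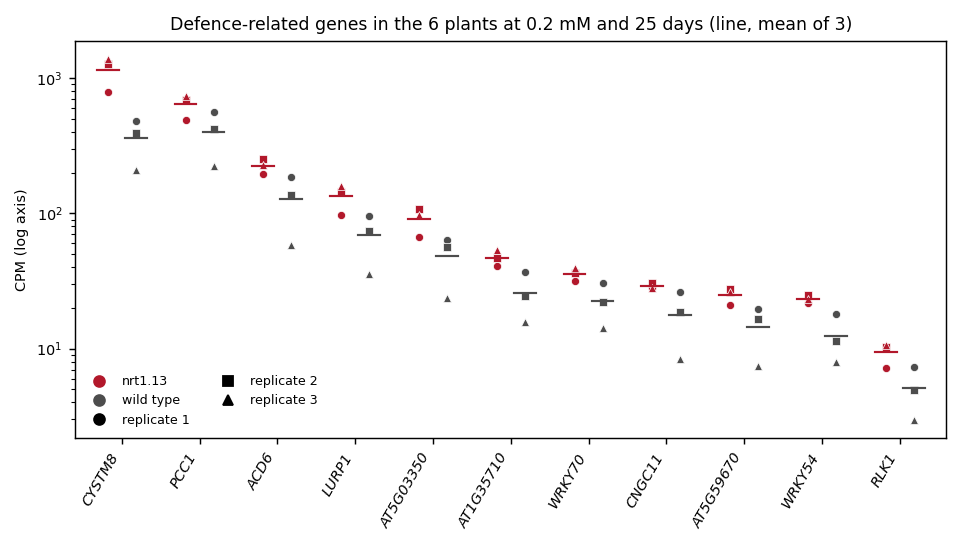
CPM on a log axis of 11 defence-related genes in the 6 plants at 0.2 mM KNO3 and 25 days, *nrt1.13* in red on the left of each pair and wild type in grey on the right, with the marker shape giving the replicate number and lines the means of 3 plants. Wild-type replicate 3 (triangle) was the lowest plant in every gene shown, and the genotypes overlapped only in *PCC1* and *RLK1*.

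The 250 bases before the annotated start of each gene in TAIR10.1 were searched on both strands for 4 short motifs. TGACG, the core bound by TGA factors, was found before 11 of 27 called higher genes (40.7%), 4 of 18 called lower genes (22.2%) and 2885 of 15049 tested genes (19.2%). TTGAC, the core of the W-box bound by WRKY factors, which overlaps TGACG in TTGACG, was found before 15 of the 27 (55.6%), 9 of the 18 (50%) and 43.9% of all. The G-box CACGTG was found before 3, 0 and 7.4%, and CGTGNG, a brassinosteroid response element, before 2, 2 and 12.3%. On the list of defence genes, 3 of 15 tested members (20%) held TGACG. Upstream stretches of 4 called higher genes with a TGACG match are shown, with the matches on either strand in capitals, since *CYSTM8* held 4 of them.
*CYSTM8*, chr3:7855815-7856064, minus strand: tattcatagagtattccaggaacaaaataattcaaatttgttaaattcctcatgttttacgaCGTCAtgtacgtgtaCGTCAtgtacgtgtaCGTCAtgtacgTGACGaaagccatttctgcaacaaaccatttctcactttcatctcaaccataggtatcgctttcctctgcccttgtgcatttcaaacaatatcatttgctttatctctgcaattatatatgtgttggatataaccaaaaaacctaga
*WRKY70*, chr3:20910624-20910873, minus strand: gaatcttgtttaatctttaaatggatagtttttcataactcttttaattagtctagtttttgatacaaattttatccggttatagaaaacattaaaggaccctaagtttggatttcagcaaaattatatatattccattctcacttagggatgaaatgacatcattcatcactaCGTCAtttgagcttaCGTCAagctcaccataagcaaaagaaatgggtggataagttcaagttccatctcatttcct
AT5G03350, chr5:816671-816920, minus strand: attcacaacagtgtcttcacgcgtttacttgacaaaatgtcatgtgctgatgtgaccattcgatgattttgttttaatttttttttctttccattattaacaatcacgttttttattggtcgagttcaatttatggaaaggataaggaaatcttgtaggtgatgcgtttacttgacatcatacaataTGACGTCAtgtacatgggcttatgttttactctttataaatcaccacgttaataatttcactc
*FLC*, chr5:3179449-3179698, minus strand: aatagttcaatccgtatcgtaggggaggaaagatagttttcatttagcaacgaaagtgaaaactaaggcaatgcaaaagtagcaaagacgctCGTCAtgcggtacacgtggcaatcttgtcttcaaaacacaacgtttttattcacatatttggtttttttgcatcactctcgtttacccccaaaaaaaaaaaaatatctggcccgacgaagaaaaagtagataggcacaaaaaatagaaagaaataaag
*WRKY70* and AT5G03350 held 2 matches each and *FLC* held 1. A match describes the letters only.

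Some genes of the cell wall and of cell expansion were lower in *nrt1.13*. The list of 22 such genes had 20 tested, with 8 lower (2.54% of all tested genes) and 1 higher at an unadjusted *P* of 0.05. Of the 20, 4 were lower by the adjusted *P* (0.113% of all) and 2 by the FC criterion (0.0331% of all). Their median log2 FC was -0.06, and 8 of the 20 were positive. This list too was chosen with earlier results of these data known, and its counts describe the members only. *AGP17*, an arabinogalactan protein of the cell surface, had 22.5, 20.6 and 25.2 CPM in *nrt1.13*, against 43.3, 40.2 and 42.3 CPM in wild type (log2 FC -0.88, SE 0.09, adjusted *P* = 2.11e-06, the smallest of all tested genes). *EXO*, a brassinosteroid-induced gene of leaf growth, had 13.9, 13.5 and 11.3 CPM in *nrt1.13*, against 25.1, 24.5 and 21.9 CPM in wild type (log2 FC -0.89, SE 0.12, adjusted *P* = 0.000171). Its relative *EXL5* had 26.8, 27.7 and 25.6 CPM, against 42.9, 37.4 and 34.2 CPM (log2 FC -0.51, adjusted *P* = 0.00262). *TCH4*, a xyloglucan endotransglucosylase, had 5.27, 4.05 and 4.92 CPM, against 8.96, 7.07 and 6.505 CPM (log2 FC -0.65, adjusted *P* = 0.0151). None of these 4 genes overlapped between the genotypes, which their selection by the adjusted *P* favours. *TCH4* missed the adjusted *P* without wild-type replicate 1 (0.106), without *nrt1.13* replicate 2 (0.233) and with the libraries of the comparison alone (0.545), where *EXL5* missed it too. Wild-type replicate 1 was the highest of the 6 plants in 7 of the 20 tested wall genes (35%), against 13.0% of all tested genes. Selection of the 18 called lower genes favours a wild-type plant as the highest. Among them replicate 1 was the highest in 12 (66.7%), replicate 2 in 4 and replicate 3 in 2.

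Outside the list, *EXGT-A3*, another xyloglucan-modifying enzyme gene, fell by 0.51 on the log2 scale, the SAUR-like gene AT1G72430 by 0.69, the glucosyl transferase gene *LGT8* by 0.44 and *TTL4* by 0.47, all past the adjusted *P*. AT1G72430 had 19.7, 19.97 and 23.1 CPM in *nrt1.13*, against 37.1, 32.4 and 31.7 CPM in wild type. The tonoplast aquaporin gene *TIP2;2* (log2 FC -0.34) and the transporter gene *ABCG22* (-0.51) were also lower. Among the expansins, which loosen walls, *EXPA8* went the other way, with 70.7, 70.0 and 87.2 CPM in *nrt1.13*, against 58.0, 66.4 and 43.1 CPM in wild type (log2 FC 0.46, adjusted *P* = 0.145). Genes of brassinosteroid synthesis and signalling, 8 of 8 tested, had 0 members at an unadjusted *P* of 0.05 and a median log2 FC of 0.03.

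In 11 of the 45 genes (7 higher and 4 lower) the genotype difference had the same sign and an unadjusted *P* of at most 0.05 in the other 3 conditions as well, each of which has its own *nrt1.13* and wild-type plants. Of all tested genes, 2.98% were higher and 2.5% lower at that *P* in the 2 mM plants of 25 days. The shares were 4.94% and 4.79% in the 0.2 mM plants of 16 days, and 2.67% and 4.28% in the 2 mM plants of that age. These were *NRT1.13*, *UBC11*, *SHL1* and *TLP2* among the lower genes and *FLC*, *CYSTM8*, *CYP71A25*, *MES18*, *TSBtype2*, AT2G42040 and AT2G12190 among the higher genes. *UBC11*, a ubiquitin-conjugating enzyme, had 8.31, 7.65 and 8.27 CPM in *nrt1.13*, against 14.8, 15.9 and 15.6 CPM in wild type (log2 FC -0.93, adjusted *P* = 5.22e-06), and its log2 FC ran from -0.98 to -0.83 in the other conditions. *SHL1*, a chromatin protein with a PHD finger and a BAH domain, had 17.7, 20.5 and 25.2 CPM, against 33.9, 36.9 and 38.2 CPM (log2 FC -0.79, adjusted *P* = 6.44e-05), and it ran from -0.87 to -0.77 elsewhere. *TLP2*, a tubby-like protein gene, fell by 0.69 here and overlaps genes on the opposite strand over 412 exonic bases. The cytochrome P450 gene *CYP71A25* was higher by log2 FCs of 0.86 here and 0.79 to 0.83 in the other conditions.

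All 19 genes past the FC criterion had the same sign at 2 mM KNO3 and 25 days, where 63.0% of the higher and 61.8% of the lower genes among all tested had it. At 2 mM and 25 days, 9 of the 19 also had an unadjusted *P* of at most 0.05. At 0.2 mM and 16 days, 8 of the 14 higher and 3 of the 5 lower genes had the same sign, with 55.7% and 55.2% of all genes as the background. At 2 mM and 25 days the median log2 FC was 0.19 over the 14 higher and -0.71 over the 5 lower genes. These genes were chosen for their size at 0.2 mM and 25 days, so smaller values elsewhere follow in part from that choice. The 4 genes of the defence list past the adjusted *P* had log2 FCs of 0.20 (*LURP1*), 0.29 (*WRKY54*), 0.13 (*ACD6*) and 0.09 (*WRKY70*) at 2 mM and 25 days.

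**Figure D3:**
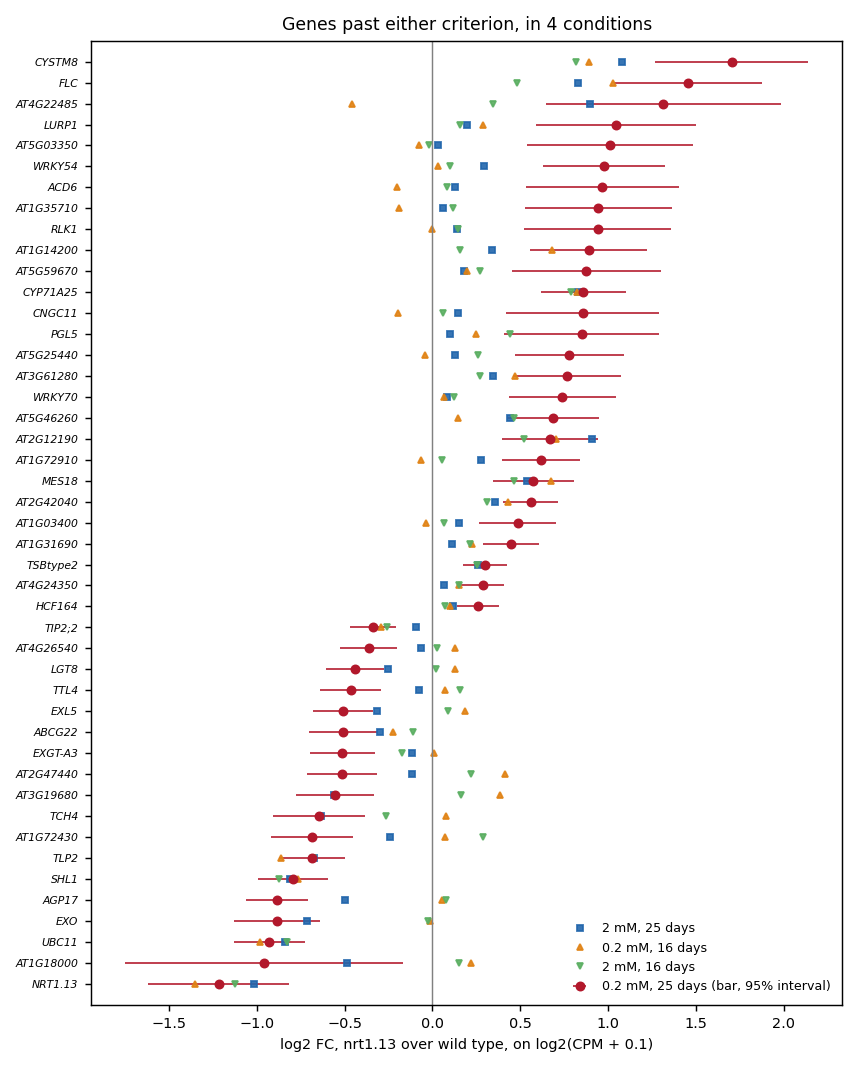
log2 FC of *nrt1.13* over wild type for the 45 genes past either criterion at 0.2 mM KNO3 and 25 days (red circles with 95% intervals), with the same gene's log2 FC at 2 mM and 25 days (blue squares), and at 16 days with 0.2 mM (orange triangles) or 2 mM (green triangles). *UBC11*, *SHL1*, *TLP2* and *CYP71A25* lie together in all 4 conditions, whereas *AGP17* and *EXO* lie near 0 at 16 days and below it at 25 days in both media.

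The difference between media was tested as the interaction of genotype and nitrate at 25 days, and 0 of 15108 genes passed the adjusted *P* in limma, 0 in edgeR and 0 in DESeq2. At an unadjusted *P* of 0.05 there were 338 genes (2.24%). The log2 FC of *LURP1* at 0.2 mM exceeded that at 2 mM by 0.85 (SE 0.31, adjusted *P* = 1.00). *LURP1* averaged 134 ± 32.2 CPM in *nrt1.13* against 68.7 ± 30.5 CPM in wild type at 0.2 mM, and 651 ± 71.6 CPM against 567 ± 40.8 CPM at 2 mM (SD, n = 3 each).

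Between 16 and 25 days at 0.2 mM KNO3, 7 genes (0.0463%) passed the adjusted *P* of the interaction of genotype and day, 1 with a higher (0.00662%) and 6 with a lower (0.0397%) log2 FC at 25 days. *AGP17* averaged 22.8 ± 2.33 CPM in *nrt1.13* against 41.9 ± 1.57 CPM in wild type at 25 days, and 19.5 ± 1.43 CPM against 18.8 ± 1.03 CPM at 16 days (SD, n = 3 each). The log2 FC at 25 days was thus lower than at 16 days by 0.94 (interaction -0.94, SE 0.12, adjusted *P* = 0.000604). *EXO* averaged 12.9 ± 1.38 CPM in *nrt1.13* against 23.8 ± 1.73 CPM in wild type at 25 days, and 16.8 ± 2.36 CPM against 17.0 ± 2.97 CPM at 16 days (interaction -0.87, SE 0.17, adjusted *P* = 0.044). AT2G47440, a tetratricopeptide repeat gene, averaged 43.2 ± 2.52 CPM in *nrt1.13* against 61.8 ± 5.94 CPM in wild type at 25 days, and 51.0 ± 5.52 CPM against 38.1 ± 3.29 CPM at 16 days, so the genotype difference had opposite signs at the 2 ages (interaction -0.93, SE 0.14, adjusted *P* = 0.00224). *EXL5* (-0.69), AT3G19680 (-0.94) and AT1G10020 (-0.80) had interactions in the same direction. *HSFC1*, a heat shock factor, went the other way (0.88, SE 0.17, adjusted *P* = 0.044), with 9.20 ± 2.04 CPM in *nrt1.13* against 7.78 ± 0.24 CPM in wild type at 25 days, and 10.13 ± 0.18 CPM against 16.2 ± 1.91 CPM at 16 days.

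**Figure D4:**
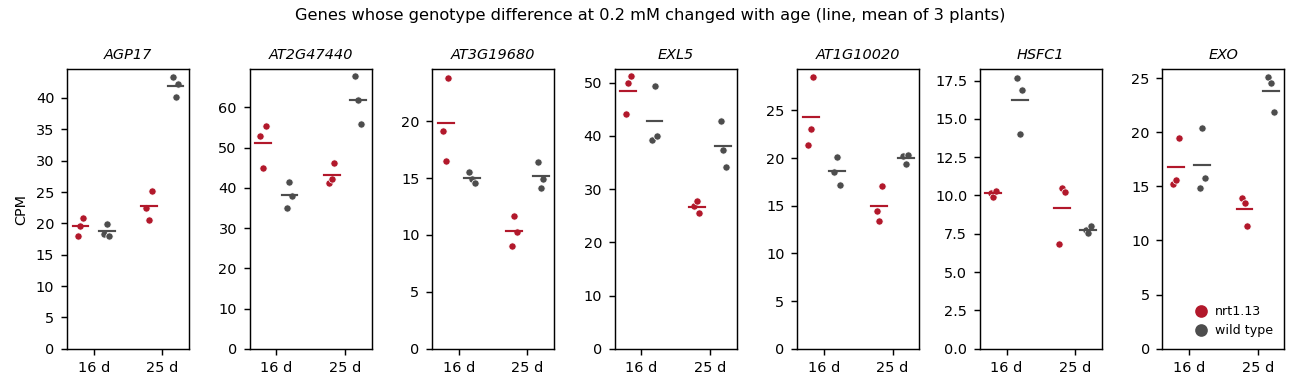
CPM of the 7 genes whose genotype difference at 0.2 mM KNO3 differed between 16 and 25 days (d) at an adjusted *P* of 0.05, with 3 *nrt1.13* plants in red left of 3 wild-type plants in grey at each age and lines for means. *AGP17* had 40.2 to 43.3 CPM in wild type at 25 days, above all its other plants shown, and *HSFC1* had 14.04 to 17.7 CPM in wild type at 16 days.

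Genes that handle nitrogen differed little, beside 3.56% of all tested genes higher and 2.54% lower at an unadjusted *P* of 0.05. Of the nitrate transport list 13 of 19 were tested, with 1 lower at an unadjusted *P* of 0.05, *NRT1.5*, the xylem-loading transporter, at 7.42, 11.04 and 6.59 CPM in *nrt1.13*, against 10.5, 8.87 and 11.6 CPM in wild type (adjusted *P* = 0.815). *NRT2.1* (NRT2:1), a high-affinity root transporter, had 0.444, 0.440 and 0.266 CPM in *nrt1.13*, against 0.258, 0.155 and 0.315 CPM in wild type. Nitrogen assimilation had 17 of 18 tested with 1 higher, *UPM1*, and a median log2 FC of -0.01, and nitrate signalling had 10 of 12 tested with 0 in either direction and a median of 0.03. *NIA2*, the main nitrate reductase, had 275, 302 and 320 CPM in *nrt1.13*, against 289, 273 and 277 CPM in wild type, with a 95% interval of the log2 FC from -0.07 to 0.25. Among the CC-type glutaredoxins, small redox proteins many of which respond to nitrogen, 1 of 7 tested was higher, AT2G47880 (log2 FC 0.38, adjusted *P* = 0.298).

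In 2 lists 1 *nrt1.13* plant was above the others throughout. The 8 tested anthocyanin genes had a median log2 FC of 0.41, and *nrt1.13* replicate 2 was the highest of the 6 plants in all 8. *DFR*, an enzyme of anthocyanin synthesis, had 40.1, 82.9 and 28.4 CPM in *nrt1.13*, against 29.3, 29.6 and 34.3 CPM in wild type. Without that plant the median was 0.02. The 9 tested jasmonate genes, *VSP2* and *LOX2* among them, had a median of 0.17 with *nrt1.13* replicate 2 the highest in all 9, and a median of -0.06 without it. *FER1*, an iron-storage ferritin gene, had 315, 71.1 and 66.7 CPM in *nrt1.13*, against 107, 88.4 and 44.6 CPM in wild type, so *nrt1.13* replicate 1 alone was above the wild-type range (log2 FC 0.61, adjusted *P* = 0.994). AT5G45430 varied from 3.87 to 23.6 CPM in *nrt1.13*, against from 3.16 to 67.6 CPM in wild type (adjusted *P* = 0.994).

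The remaining lists held 0 to 2 genes each at an unadjusted *P* of 0.05, where 3.56% of all tested genes were higher and 2.54% lower. The iron list had 9 of 18 tested with 1 lower (*NAS4*), the circadian clock 8 of 12 with 1 higher (*ELF4*) and 1 lower (*PCL1*), and strigolactone and branching 7 of 13 with 1 higher and 1 lower. Light harvesting had 9 of 9 tested with 1 lower (*CAB2*), the type-A response regulators 6 of 9 with 1 lower (*ARR7*), and heat shock 5 of 5 with 2 higher (*HSP101* and *HSFA2*). Leaf senescence had 5 of 11 and the xylem list 7 of 10 tested, each with 0. All 5 tested senescence genes had positive log2 FCs, with a median of 0.04. Of the senescence genes below the filter, *SAG12*, *SAG29*, *NAP*, *NAC6* and AT4G11910 overlapped between the genotypes. Only *SAG13* did not, with 0.666, 0.880 and 0.998 CPM in *nrt1.13*, against 3.35, 1.61 and 4.80 CPM in wild type (two-sided exact permutation test, *P* = 0.1, the smallest it can give). Among all tested genes, 3.8% were lower without overlap.

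**Figure D5:**
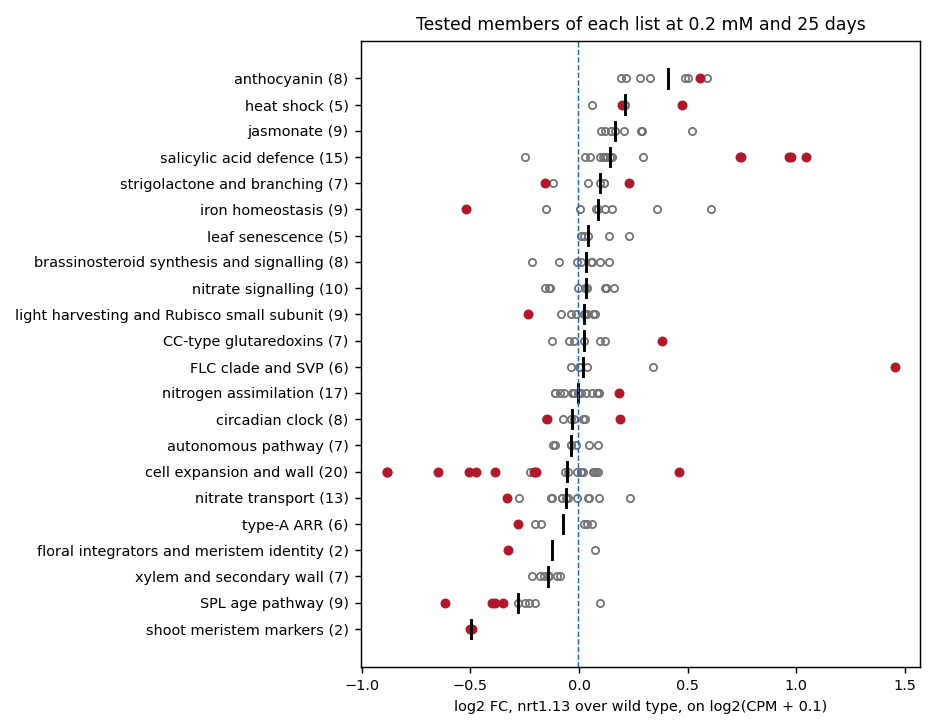
log2 FC of *nrt1.13* over wild type at 0.2 mM KNO3 and 25 days for the tested members of each list (circles, filled red at an unadjusted *P* of at most 0.05), with a black bar at the median of the list, the number tested in parentheses and a dashed line at the median of all tested genes. The *SPL* and meristem lists lie to the left with medians of -0.28 and -0.50, and *FLC* stands alone in its clade at 1.45.

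The other genes past the FC criterion had mixed roles. AT4G22485, a lipid-transfer protein gene, had 38.5, 43.8 and 30.9 CPM in *nrt1.13*, against 9.51, 17.0 and 20.7 CPM in wild type (log2 FC 1.32, adjusted *P* = 0.0996), and it overlaps a gene on the other strand over 1842 exonic bases. *PGL5*, a 6-phosphogluconolactonase gene, had 16.9, 24.6 and 19.0 CPM, against 9.16, 12.0 and 12.1 CPM (log2 FC 0.85, adjusted *P* = 0.114). AT1G14200, a RING protein gene, had 8.28, 11.1 and 13.97 CPM, against 5.09, 6.36 and 6.06 CPM (log2 FC 0.89, adjusted *P* = 0.00752). AT1G18000 had 8.50, 3.47 and 2.62 CPM, against 11.4, 8.72 and 5.95 CPM (log2 FC -0.96, adjusted *P* = 0.634). All of its 50-base stretches (100%) occurred elsewhere, mainly in AT1G18010, so its value is uncertain.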

How the data were processed

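Shoots of single plants were sequenced as stranded polyadenylated RNA, 3 plants in each of 8 groups. The authors mapped reads to TAIR10 with CLC Genomics Workbench, keeping unique matches, and deposited a normalized signal per gene in CPM, with whole reads recoverable for 100% of values (within 0.02 reads). The column sums show an added scaling whose method was not given in the sources used here, as was the strand setting of the counting. Base calls came from bcl2fastq 2.17.1.14 per the submitters' processing notes. Here log2(CPM + 0.1) of 15108 genes with at least 2 CPM in all 24 libraries was fitted with limma 3.58.1 in R 4.3.3 (8 group means, 16 residual degrees of freedom, trend), with Benjamini-Hochberg adjustment, after the script was tested on simulated data. Of 28775 genes, 3228 were at 0 throughout. Genes below the filter were compared by a two-sided exact permutation test. Alternatives were other pseudocounts and filters, edgeR 4.0.16 and DESeq2 1.42.0 on recovered reads, a replicate block, the libraries of the comparison alone, and leaving out each plant. Named were *NRT1.13*, the genes past either criterion, those past an interaction, genes the study discusses and members of 24 lists. The members and lists were chosen with earlier results of these data known. Sequences, positions and names (28009 loci matched) are from RefSeq, TAIR10.1. Intervals are 95%.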

Additional observations from a re-analysis of the deposited data

Results flagged for a closer look

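The genotype difference at 0.2 mM KNO3 differed between 25 and 16 days in 7 genes, by the interaction of genotype and day (limma, adjusted *P* of at most 0.05). It was lower at 25 days by -0.94 on the log2 scale for *AGP17*, -0.93 for AT2G47440, -0.94 for AT3G19680, -0.69 for *EXL5*, -0.80 for AT1G10020 and -0.87 for *EXO*, and higher by 0.88 for *HSFC1*.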

How the results depend on the processing

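*NRT1.13* stayed lower and past the adjusted *P* in every alternative run, with log2 FCs of -1.33 to -1.04. Of 1088 values of 68 single genes under the alternatives, 943 kept direction and side of the threshold, 137 kept direction but lost the threshold, 7 gained it and 1 reversed, *FER1* without *nrt1.13* replicate 1 (-0.12, range to 1.00 with other plants left out). The threshold is the adjusted *P*, and the 68 genes include some that did not pass it in the main fit. Those could gain it but not lose it, so the 943 overstate how steady the calls were. The 19 genes past the FC criterion became 11 with a pseudocount of 1, 43 with a mean CPM of at least 2, 268 with no filter, 53 at an FC of 1.5, and 11 to 30 with 1 plant left out. The 39 genes past the adjusted *P* became 9 with the libraries of the comparison alone, 61 in DESeq2, and 14 (without *nrt1.13* replicate 2) to 133 (without *nrt1.13* replicate 1) with 1 plant left out. The 0 genes of the nitrate interaction became 1 with no filter and 0 to 2 with 1 plant left out. The 7 of the day interaction became 4 with no filter, 4 without trend, 2 with its libraries alone, 33 in DESeq2 and 3 to 23 with 1 plant left out. The cause of these changes was not tested.

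With the replicate number as a block, 55 genes passed the adjusted *P* (33 shared with the 39) and 19 the FC criterion, and 9 passed the day interaction. The deviations of same-numbered plants correlated by 0.22, 0.0978 and 0.32, and each plant correlated best with its own number, a hint from the data and not from the design.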
